A study of Homo sapiens with 18 samples.

Results

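The core genes of the circadian clock were followed through the RNA-Seq and RNAPII peak data. The members were 10 named genes: the cryptochromes CRY1 and CRY2, the period genes PER1, PER2 and PER3, the activators CLOCK and BMAL1, the nuclear receptors NR1D1 and NR1D2, and the output factor DBP. They were found by Entrez gene ID and make up 10 of the 23604 rows listed in at least 1 library. All 10 had reads in each of the 8 RNA-Seq libraries and passed the filter on low counts. Of these genes CRY2 was singled out by the study itself on these samples, so its change here is not independent evidence.

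The cells were MCF10A-Er-Src, a human breast epithelial line that carries an inducible fusion of the Src kinase with an oestrogen receptor domain, and every group carries this fusion. NT cells were not transformed and TAM cells were transformed by tamoxifen, which switches the fusion on. Each state was kept for 4 h with DMSO or with triptolide (labelled TPL-125nM, TPL in the text), a diterpenoid that inhibits XPB, a TFIIH subunit, and so blocks the start of transcription. The 4 groups (NT, NT + TPL, TAM, TAM + TPL) held 2 RNA-Seq libraries each, stated to be biological replicates, and 1 RNAPII ChIP-Seq peak list was used per group. It is 1 line under 1 dose and 1 time, and no sample follows a daily rhythm.

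In the mammalian clock the CLOCK and BMAL1 proteins pair and bind E-box sequences, and so switch on the PER, CRY and NR1D genes. The PER and CRY proteins return to the nucleus and block that pair, while the NR1D proteins (REV-ERB alpha and beta) repress BMAL1, which closes a second loop. Many clock transcripts and proteins turn over within hours, and DBP and its relatives pass the rhythm on through D-box sequences.

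The libraries held between 7461309 and 8349448 expected counts, the estimated reads per gene. The epithelial label was borne out by KRT5, a basal keratin listed at 434 to 6250 FPKM (fragments per kilobase of transcript, scaled to the library), and by KRT17, KRT14, CDH1 and LAMB3, each above 26 FPKM in all libraries. TP63, a basal transcription factor, was between 13.16 and 24.19 FPKM without TPL and between 0.28 and 0.89 FPKM with it. Of the 9 markers of other cell types, CDH5 was not listed, and COL3A1, VWF and CD3E stayed at or below 0.17 FPKM. COL1A1 reached 6.14, PTPRC 2.14, PECAM1 1.69 and COL1A2 1.15 FPKM. COL1A2 differed between replicates, with 48 expected counts in TAM replicate 2 and 0 in replicate 1. In TAM + TPL it had 47 in replicate 1 and 0 in replicate 2, and the cause was not tested. CD68, a lysosomal protein that many cell types make, was at 47.1 to 472.9 FPKM. Several markers differed between the groups. Mean KRT5 went from 6013 FPKM in NT to 1308 in TAM and 455 in TAM + TPL, and mean KRT17 from 6714 to 1481 and 787. With TPL in NT cells mean KRT14 went from 552 to 136 FPKM and mean LAMB3 from 276 to 34.8. Mean COL1A1 was 3.85 FPKM in NT and 0.54 in TAM, mean PTPRC was 0.46 and 0.435 FPKM without TPL and 1.43 and 1.71 with it, and mean CD68 was 47.1 FPKM in NT and 291 in TAM. The part of these marker differences in the clock values was not tested. RNA-Seq values are shares of a library, so a loss of mRNA common to all genes is not seen in them, and fewer cells cannot be told apart from less RNA per cell.

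The start regions of 4 clock genes are shown because the first 3 carry letters of the clock's own binding sequences and the fourth, CLOCK, has an RNAPII peak in all 4 lists but carries none of these letters. Each is the 250 bases before the canonical transcription start site (TSS) on GRCh37, written 5′ to 3′ on the gene's strand. Capitals mark an E-box (CACGTG), an E-prime box (CACGTT, or AACGTG on the opposite strand) or a D-box (TTATGCAA here).
CRY2, chr11:45868776-45869025, plus strand: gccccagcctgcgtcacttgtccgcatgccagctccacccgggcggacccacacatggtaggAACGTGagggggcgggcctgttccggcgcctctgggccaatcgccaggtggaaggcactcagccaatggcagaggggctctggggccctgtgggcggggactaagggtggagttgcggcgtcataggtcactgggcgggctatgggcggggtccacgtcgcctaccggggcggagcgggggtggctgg
PER1, chr17:8055723-8055972, minus strand: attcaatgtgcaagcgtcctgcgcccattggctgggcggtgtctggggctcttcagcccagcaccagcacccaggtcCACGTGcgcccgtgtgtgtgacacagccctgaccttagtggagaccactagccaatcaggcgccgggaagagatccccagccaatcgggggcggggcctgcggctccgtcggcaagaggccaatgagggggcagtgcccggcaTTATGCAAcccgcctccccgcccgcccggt
NR1D1, chr17:38256843-38257092, minus strand: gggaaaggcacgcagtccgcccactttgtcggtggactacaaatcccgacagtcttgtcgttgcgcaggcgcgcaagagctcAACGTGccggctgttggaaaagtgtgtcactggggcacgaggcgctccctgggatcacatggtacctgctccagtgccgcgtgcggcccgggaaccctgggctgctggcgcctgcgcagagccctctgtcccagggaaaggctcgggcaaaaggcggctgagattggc
CLOCK, chr4:56413077-56413326, minus strand: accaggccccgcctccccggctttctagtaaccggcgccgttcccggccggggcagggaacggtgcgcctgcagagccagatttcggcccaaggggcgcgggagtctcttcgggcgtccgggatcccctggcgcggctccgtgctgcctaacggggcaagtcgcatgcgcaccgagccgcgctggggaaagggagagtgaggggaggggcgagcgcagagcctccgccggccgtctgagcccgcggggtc
The PER1 E-box lies at bases -173 to -168 from the TSS and its D-box at -30 to -23. The E-prime box of CRY2 lies at -188 to -183 and that of NR1D1 at -168 to -163. Both strands were searched in the same window of all 10 members. An E-box was found in PER1 alone, an E-prime box in CRY1, CRY2, PER2 and NR1D1, and a D-box (TTATGTAA, TTACGTAA or TTATGCAA) in PER1 and PER3. Of 19853 windows of protein-coding genes, 7.87% hold the E-box, 4.45% the E-prime box and 1.26% the D-box. The cyclic AMP response element TGACGTCA and the ROR element were in none of the 10 windows, and 2.40% and 0.176% of all windows hold them. A match of letters is a description and not a measured binding site.

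The levels of the 10 genes span a wide range in FPKM, a scale per transcript length. In NT cells PER1, a period protein gene that responds quickly to outside signals, was highest at 56.37 and 58.20 FPKM, and PER3 was lowest at 0.58 and 0.87 FPKM. Between them stood NR1D1 (mean 12.2 FPKM), BMAL1 (8.30), PER2 (7.42), CLOCK (6.13), NR1D2 (3.93), CRY1 (3.09), CRY2 (2.47) and DBP (1.22). The replicate ranges of NR1D2, CRY1 and CRY2 overlapped from neighbour to neighbour in this order, and the other neighbours lay apart. In TAM cells PER1 was first in the order and CRY2 eighth, as in NT cells, but the PER1 range (17.99 and 29.17 FPKM) overlapped that of NR1D1 (19.28 and 19.49 FPKM). With TPL, CRY2 stood second after PER1 in both states, and in TAM + TPL cells its range overlapped that of NR1D1.

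**Figure D1:**
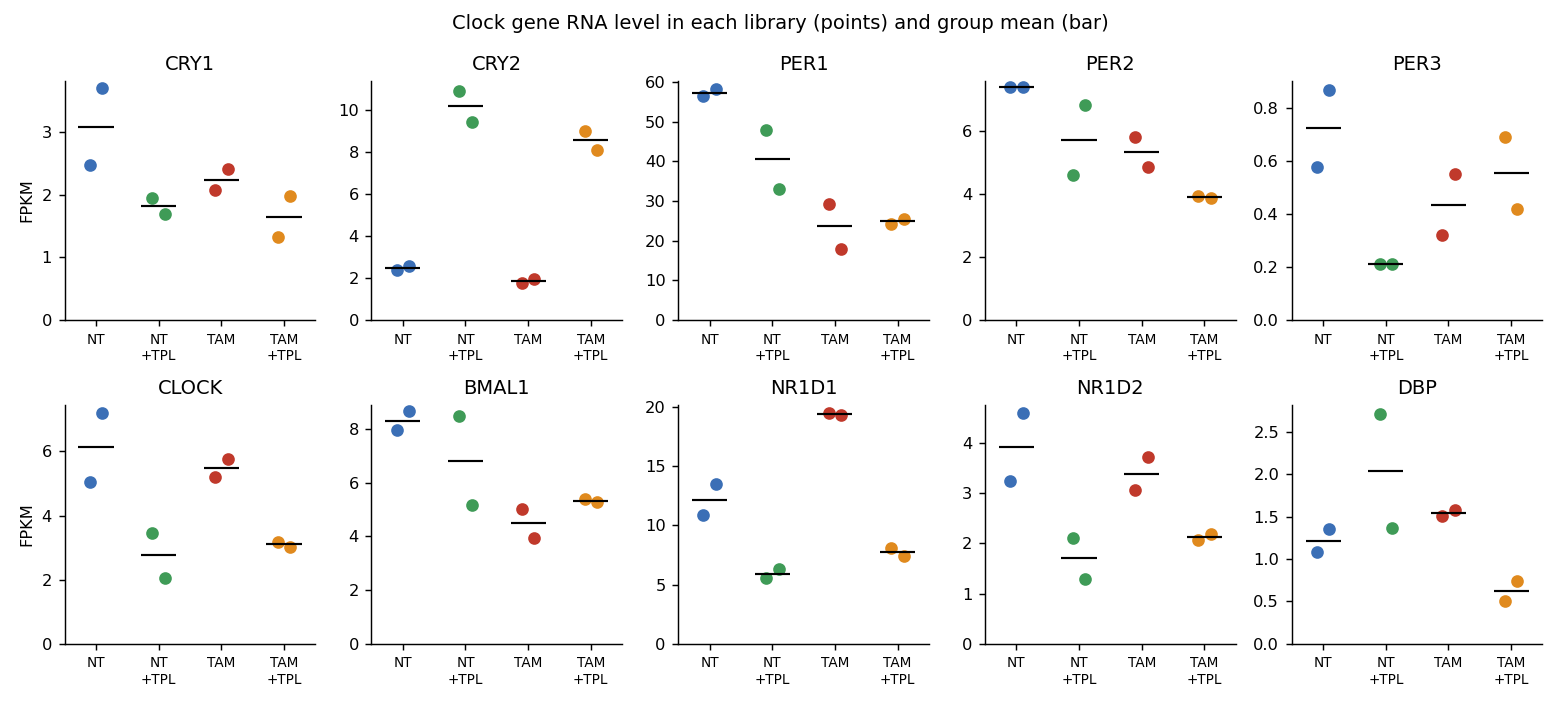
RNA level (FPKM, linear axis from 0, own scale per gene) of the 10 clock genes in the 8 libraries. Points are single libraries and bars are means of 2 libraries per group. The CRY2 points with TPL (8.08 to 10.90 FPKM) all lie above those without it (1.75 to 2.56 FPKM), and the NR1D1 points with TPL (5.56 to 8.12 FPKM) all lie below those without it (10.88 to 19.49 FPKM).

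The first comparison asks what TPL did to the clock genes in untransformed cells. CRY2 rose, and PER3, CLOCK, NR1D1 and NR1D2 fell, at an adjusted p of at most 0.05 (quasi-likelihood test of edgeR, adjusted by Benjamini and Hochberg's method over 16948 genes). The other 5 members did not pass. Among all genes tested 17.2% rose and 19.8% fell, against 1 and 4 of the 10 members. The median log2 fold change of the members was -0.64 and that of all genes 0.09.

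CRY2, a cryptochrome that represses the CLOCK and BMAL1 pair, was at 2.38 and 2.56 FPKM in NT and at 10.90 and 9.41 FPKM in NT + TPL. Both treated libraries lay well above both controls. The rise was 4.03-fold (log2 fold change 2.01, SE 0.17, 95% interval 1.61 to 2.41, edgeR adjusted p = 0.000458), on expected counts of 82 and 88 against 349 and 300. CRY2 passed under every alternative tried, with log2 fold changes between 1.64 and 2.23 and adjusted p between 2.65e-18 and 0.0114. It was also the only member past the stricter limits taken from the study's methods (adjusted p up to 0.001, and 1.2 or more in either direction on the log2 scale). Of all genes 1.22% passed them upwards and 2.71% downwards. The limits were applied to the edgeR test used here, which need not be the study's test. The study reported larger shares of genes up and down with TPL, so a member that missed them here may pass there.

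CRY1, the other cryptochrome, was at 2.47 and 3.70 FPKM in NT and at 1.95 and 1.70 FPKM in NT + TPL. Its treated libraries lay below the controls, but the difference did not pass (log2 fold change -0.76, SE 0.34, 95% interval -1.56 to 0.03, edgeR adjusted p = 0.116). CRY2 made up 49.1% and 40.9% of the summed cryptochrome FPKM in NT and 84.8% and 84.7% in NT + TPL.

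NR1D1, the REV-ERB alpha receptor, was at 10.88 and 13.45 FPKM in NT and at 5.56 and 6.29 FPKM in NT + TPL, with no overlap. It fell by 1.04 on the log2 scale (SE 0.17, edgeR adjusted p = 0.00486) and passed under each alternative test, scaling, filter and left-out library, with adjusted p up to 0.0386, but not under the stricter limits. Its paralogue NR1D2 was at 3.25 and 4.60 FPKM in NT and at 2.11 and 1.29 FPKM in NT + TPL. NR1D2 fell by 1.23 (SE 0.29, edgeR adjusted p = 0.0170). That call was lost without NT replicate 2 (adjusted p = 0.0999), without NT + TPL replicate 2 (0.0614) and in a fit of the 2 groups alone (0.0661). NR1D1 shares 473 bases, 18.0% of its exon length, with THRA on the opposite strand, and the strand setting of the counting is not given in the sources used here.

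CLOCK, the histone acetyltransferase partner of BMAL1, was at 5.06 and 7.20 FPKM in NT and at 3.45 and 2.06 FPKM in NT + TPL. It fell by 1.18 (SE 0.26, edgeR adjusted p = 0.0129), and the call was lost without NT replicate 2 (adjusted p = 0.0730) and in the fit of the 2 groups alone (0.0614). BMAL1, its partner, was at 7.94 and 8.66 FPKM in NT and at 8.47 and 5.15 FPKM in NT + TPL. The BMAL1 libraries of the 2 groups overlapped and the difference did not pass (log2 fold change -0.29, SE 0.25, edgeR adjusted p = 0.391).

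PER3, a period gene with a minor part in the core loop, was low, with expected counts of 30 and 45 in NT and 10 and 10 in NT + TPL (0.58 and 0.87 against 0.21 and 0.21 FPKM). It fell by 1.81 (SE 0.51, edgeR adjusted p = 0.0304). This call was the least firm of the 5: it was lost when any of the 4 NT or NT + TPL libraries was left out (adjusted p from 0.0530 to 0.145), in both limma fits (0.0504 and 0.0551) and in the fit of the 2 groups alone (0.0620). PER3 shares 868 exon bases, 13.6% of its length, with UTS2 on the opposite strand.

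PER1 was at 56.37 and 58.20 FPKM in NT and at 47.90 and 33.06 FPKM in NT + TPL (log2 fold change -0.51, SE 0.25, edgeR adjusted p = 0.141). PER2, its paralogue, was at 7.42 and 7.42 FPKM in NT and at 4.61 and 6.83 FPKM in NT + TPL (log2 fold change -0.38, SE 0.22, edgeR adjusted p = 0.220). Both genes were lower in both treated libraries, and neither passed. With GAPDH as the reference PER1 did pass (log2 fold change -0.89, edgeR adjusted p = 0.036). The PER2 log2 fold change was -0.71 without NT + TPL replicate 2 and -0.09 without NT + TPL replicate 1. DBP, a D-box activator, was at 1.08 and 1.35 FPKM in NT and at 2.71 and 1.37 FPKM in NT + TPL, on 16 to 38 expected counts (log2 fold change 0.73, SE 0.49, edgeR adjusted p = 0.276).

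The NT replicates differed from each other to an unequal degree among the members. NT replicate 2 was 1.5 times replicate 1 in the FPKM of CRY1 (mean transcript length 3310 bases) and PER3 (6278 bases), and 1.42 times in CLOCK (10498 bases) and NR1D2 (5130 bases). It was between 1.0 and 1.25 times in PER2 (6342 bases), PER1 (4717 bases), CRY2 (4181 bases), BMAL1 (2834 bases), NR1D1 (2793 bases) and DBP (1826 bases). The ratio was high in CLOCK, PER3 and NR1D2 at longer lengths and in CRY1 at a shorter one, and 1.0 in PER2 at a long one. Its relation to length within the 10 members was not tested. Over 16948 genes the log2 difference between the 2 NT replicates had a Spearman rho of 0.297 with length, and that between the 2 NT + TPL replicates one of -0.232. In TAM and TAM + TPL rho was -0.153 and 0.033. These are descriptions across genes, which are not independent replicates, and their part in the calls that were lost without NT replicate 2 was not tested.

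**Figure D2:**
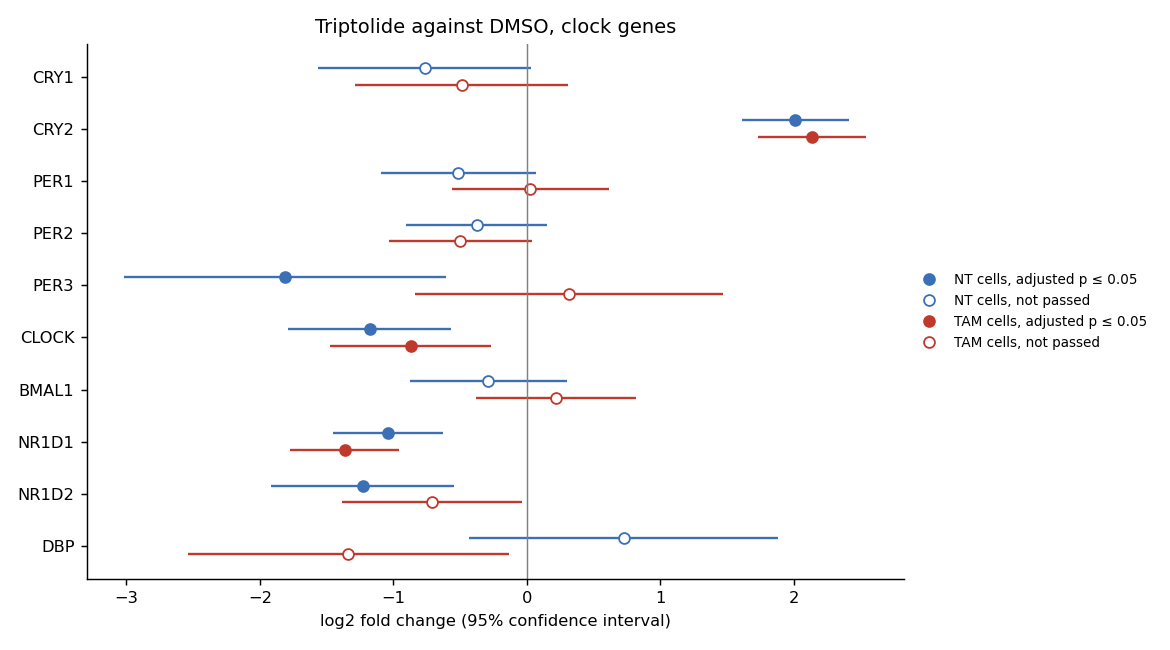
Log2 fold change of TPL against DMSO (horizontal axis) for the 10 clock genes in NT and TAM cells, with 95% confidence intervals from edgeR's fit of 4 groups of 2 libraries. Filled points passed an adjusted p of 0.05. CRY2 stands at 2.01 and 2.14, and the other filled points lie between -1.81 and -0.87.

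The second comparison puts the same question to transformed cells. With TPL, CRY2 rose, and CLOCK and NR1D1 fell, at an adjusted p of at most 0.05. Among all genes tested 14.3% rose and 18.6% fell, against 1 and 2 of the 10 members. The members had a median log2 fold change of -0.49 and all genes one of 0.05.

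CRY2 was at 1.75 and 1.97 FPKM in TAM and at 8.99 and 8.08 FPKM in TAM + TPL. As in NT cells, both treated libraries lay far above the controls. The rise was 4.40-fold (log2 fold change 2.14, SE 0.17, 95% interval 1.73 to 2.54, edgeR adjusted p = 0.000442), and it passed under every alternative, the stricter limits included, which 0.844% of all genes passed upwards and 2.04% downwards. The CRY2 share of summed cryptochrome FPKM was 45.7% and 45.0% in TAM, against 87.2% and 80.3% in TAM + TPL. CRY1 was at 2.08 and 2.41 FPKM in TAM and at 1.32 and 1.98 FPKM in TAM + TPL (log2 fold change -0.49, SE 0.34, edgeR adjusted p = 0.297).

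NR1D1 was at 19.49 and 19.28 FPKM in TAM and at 8.12 and 7.45 FPKM in TAM + TPL. It fell by 1.36 (SE 0.17, edgeR adjusted p = 0.00189), and the call was lost under the stricter limits alone. CLOCK was at 5.19 and 5.75 FPKM in TAM and at 3.18 and 3.03 FPKM in TAM + TPL. CLOCK fell by 0.87 (SE 0.26, edgeR adjusted p = 0.0387), without overlap of the groups. Its call was lost when any of the 4 TAM or TAM + TPL libraries was left out (adjusted p from 0.0998 to 0.161), with upper quartile scaling (0.0853) and in both limma fits (0.0726 and 0.0788).

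The other members did not pass in TAM cells. NR1D2 was at 3.06 and 3.72 FPKM in TAM and at 2.06 and 2.18 FPKM in TAM + TPL (log2 fold change -0.71, SE 0.29, edgeR adjusted p = 0.0980). DBP was at 1.51 and 1.58 FPKM in TAM and at 0.51 and 0.74 FPKM in TAM + TPL (log2 fold change -1.34, SE 0.51, edgeR adjusted p = 0.0844), on 7 to 24 expected counts. The groups of NR1D2 and of DBP did not overlap, but both differences missed the threshold. In the fit of the 2 groups alone NR1D2 did pass (log2 fold change -0.71, edgeR adjusted p = 0.0423). DBP shares 661 bases, 30.5% of its exon length, with SPHK2 on the opposite strand. PER2 was at 5.83 and 4.87 FPKM in TAM and at 3.95 and 3.87 FPKM in TAM + TPL (log2 fold change -0.50, SE 0.23, edgeR adjusted p = 0.131). PER3 was at 0.32 and 0.55 FPKM in TAM and at 0.69 and 0.42 FPKM in TAM + TPL, and its groups overlapped (log2 fold change 0.31, SE 0.49, edgeR adjusted p = 0.642). PER1 stood at 29.17 and 17.99 FPKM in TAM and at 24.20 and 25.46 FPKM in TAM + TPL, with the treated libraries inside the range of the controls (log2 fold change 0.03, SE 0.25, edgeR adjusted p = 0.945). BMAL1 was at 5.03 and 3.95 FPKM in TAM and at 5.37 and 5.26 FPKM in TAM + TPL (log2 fold change 0.22, SE 0.25, edgeR adjusted p = 0.534).

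Whether TPL acted differently in the 2 states was tested as an interaction, the TPL effect in TAM cells minus that in NT cells. None of the 10 members passed with edgeR, DESeq2 or limma. By edgeR 2 members, PER3 and DBP, had an unadjusted p under 0.05. Over all genes 0.0885% passed upwards and 0.0767% downwards, and 5.03% and 5.59% were under an unadjusted 0.05. The CRY2 difference was 0.13 on the log2 scale (SE 0.23, 95% interval -0.43 to 0.68, edgeR adjusted p = 0.897), so a difference inside that interval cannot be seen here. PER3 had a difference of 2.13 (SE 0.70, edgeR adjusted p = 0.366) and DBP one of -2.06 (SE 0.71, edgeR adjusted p = 0.381).

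The third comparison sets transformed against untransformed cells, both with DMSO. PER1 fell, and the other 9 members did not pass. Of all genes 3.46% were higher and 3.39% lower at the same threshold. PER1 was at 56.37 and 58.20 FPKM in NT and at 29.17 and 17.99 FPKM in TAM, so that both TAM libraries lay under both NT libraries. The level was 2.40-fold lower (log2 fold change -1.27, SE 0.25, 95% interval -1.86 to -0.68, edgeR adjusted p = 0.0291). The call was lost without NT replicate 1 (adjusted p = 0.115), NT replicate 2 (0.126), TAM replicate 2 (0.131), TAM + TPL replicate 1 (0.0746) or TAM + TPL replicate 2 (0.0753), and in the fit of the 2 groups alone (0.0652).

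NR1D1 was at 10.88 and 13.45 FPKM in NT and at 19.49 and 19.28 FPKM in TAM, with no overlap, but the difference missed the threshold (log2 fold change 0.69, SE 0.17, edgeR adjusted p = 0.0612). It passed with DESeq2 (adjusted p = 0.00318), upper quartile scaling (0.0471), the filter of 10 counts in every library (0.0456) and summed rows (0.0357), and without either NT + TPL replicate (0.0363 and 0.0374). BMAL1 was at 7.94 and 8.66 FPKM in NT and at 5.03 and 3.95 FPKM in TAM, also with no overlap (log2 fold change -0.87, SE 0.25, edgeR adjusted p = 0.104), and passed with DESeq2 (adjusted p = 0.0348), GAPDH as the reference (0.0246) and summed rows (0.0481), and without either NT + TPL replicate (0.0489 and 0.0436). CRY2 was at 2.38 and 2.56 FPKM in NT and at 1.75 and 1.97 FPKM in TAM (log2 fold change -0.39, SE 0.17, edgeR adjusted p = 0.273), and passed with GAPDH as the reference (log2 fold change -0.86, adjusted p = 0.0455). The log2 fold changes of CRY1 (-0.44), PER2 (-0.46), PER3 (-0.73), CLOCK (-0.16), NR1D2 (-0.18) and DBP (0.36) had adjusted p between 0.326 and 0.805. This comparison shares the TAM and NT control libraries with both TPL comparisons.

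With TPL present in both states, none of the 10 members passed by edgeR between TAM + TPL and NT + TPL, against 2.83% of all genes upwards and 4.21% downwards. An unadjusted p under 0.05 was seen for PER1, PER2, PER3 and DBP, and for 9.12% of all genes upwards and 12.2% downwards. DESeq2 called PER1 alone (adjusted p = 0.0303). PER1 was at 47.90 and 33.06 FPKM in NT + TPL and at 24.20 and 25.46 FPKM in TAM + TPL (log2 fold change -0.72, SE 0.25, edgeR adjusted p = 0.149).

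**Figure D3:**
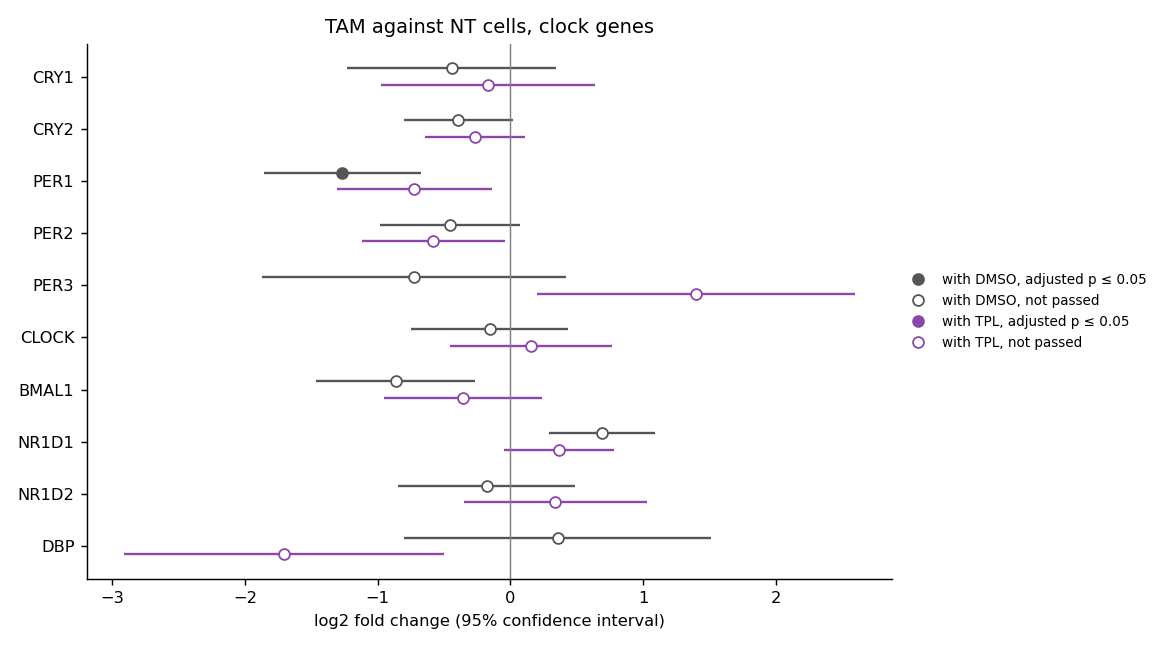
Log2 fold change of TAM against NT cells (horizontal axis) for the 10 clock genes, with DMSO or with TPL in both, with 95% confidence intervals from edgeR's fit of 4 groups of 2 libraries. The filled point, PER1 with DMSO at -1.27, is the only one past an adjusted p of 0.05.

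A list of 29 further genes of the clock (paralogues, nuclear receptors, kinases, ubiquitin ligases, repressors and outputs) was read in the same fit. Of these 25 passed the filter on low counts, RORB, BHLHE41 and USP2 did not, and FBXL21P was not listed. With TPL 10 of the 25 fell and none rose in NT cells by edgeR, and 10 fell and 1 rose in TAM cells. The shares of all genes at this threshold were 17.2% upwards and 19.8% downwards in NT cells, and 14.3% and 18.6% in TAM cells. An unadjusted p under 0.05 was seen for 12 of the 25 in NT cells, against 23.7% of all genes upwards and 24.1% downwards, and for 14 of the 25 in TAM cells, against 21% and 24%. The list medians were -0.51 and -0.52 on the log2 scale, against 0.09 and 0.05 for all genes. The genes that fell in both states were the 7 genes BHLHE40, WEE1, CIPC, CIART, NFIL3, CSNK1E and BMAL2. The share of all genes that fell in both states was not counted, so this number is a description.

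Several repressors of the clock were among the genes that fell, while the repressor CRY2 rose. Of the repressors and cofactors listed, TIMELESS, NONO and SIRT1 passed in neither state (edgeR adjusted p between 0.0943 and 0.734). BHLHE40 (DEC1), which competes for E-boxes, was at 60.75 and 68.80 FPKM in NT against 10.90 and 3.68 in NT + TPL, and at 148.22 and 139.44 FPKM in TAM against 17.19 and 20.30 in TAM + TPL. It fell by 3.17 (SE 0.42, edgeR adjusted p = 0.00193) and by 2.99 (SE 0.41, edgeR adjusted p = 0.00247), with no overlap in either state. CIART and CIPC, which both inhibit the CLOCK and BMAL1 pair, fell in NT cells, with log2 fold changes of -1.999 (edgeR adjusted p = 0.0101) and -1.998 (0.00157). In TAM cells they fell by 1.37 (0.0399) and by 1.45 (0.00564). NFIL3, the repressor that opposes DBP at D-boxes, fell by 1.48 (0.0107) in NT and by 1.29 (0.0156) in TAM cells.

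WEE1, a cell cycle kinase gene with E-boxes known to be driven by the clock, was at 10.88 and 7.86 FPKM in NT against 1.28 and 1.5 in NT + TPL, and at 8.60 and 6.0 FPKM in TAM against 1.68 and 1.09 in TAM + TPL. It fell by 2.77 (SE 0.33, edgeR adjusted p = 0.00129) and by 2.44 (SE 0.32, edgeR adjusted p = 0.00226). Of the kinases that mark PER proteins for decay, CSNK1E fell in both states, by 0.53 (0.0169) in NT and by 0.64 (0.00935) in TAM cells. CSNK1A1 (log2 fold change -0.86, edgeR adjusted p = 0.0123), GSK3B (-0.75, 0.0469) and the ubiquitin ligase subunit FBXW11 (-0.66, 0.0452) fell in NT cells, and CSNK1D (-0.85, 0.00427), the repressor KLF10 (-1.59, 0.00637) and NAMPT (-0.81, 0.0421), the enzyme of NAD salvage, fell in TAM cells. For none of these 6 did the interaction pass, with edgeR adjusted p between 0.285 and 0.575. These 6 were set apart by passing in a single state, which by itself favours a low interaction p. Of the 25 genes 4 (CSNK1A1, CSNK1D, GSK3B and KLF10, all among the 6) had an unadjusted interaction p under 0.05, against 5.03% of all genes upwards and 5.59% downwards. HLF, a relative of DBP, rose in TAM cells (log2 fold change 2.37, SE 0.70, edgeR adjusted p = 0.0392), on expected counts of 2 and 4 in TAM, against 17 and 14 in TAM + TPL. The TAM + TPL libraries alone carried HLF over the filter on low counts, so it could enter the test only through the group where it was high, and the call is given as a description.

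**Figure D4:**
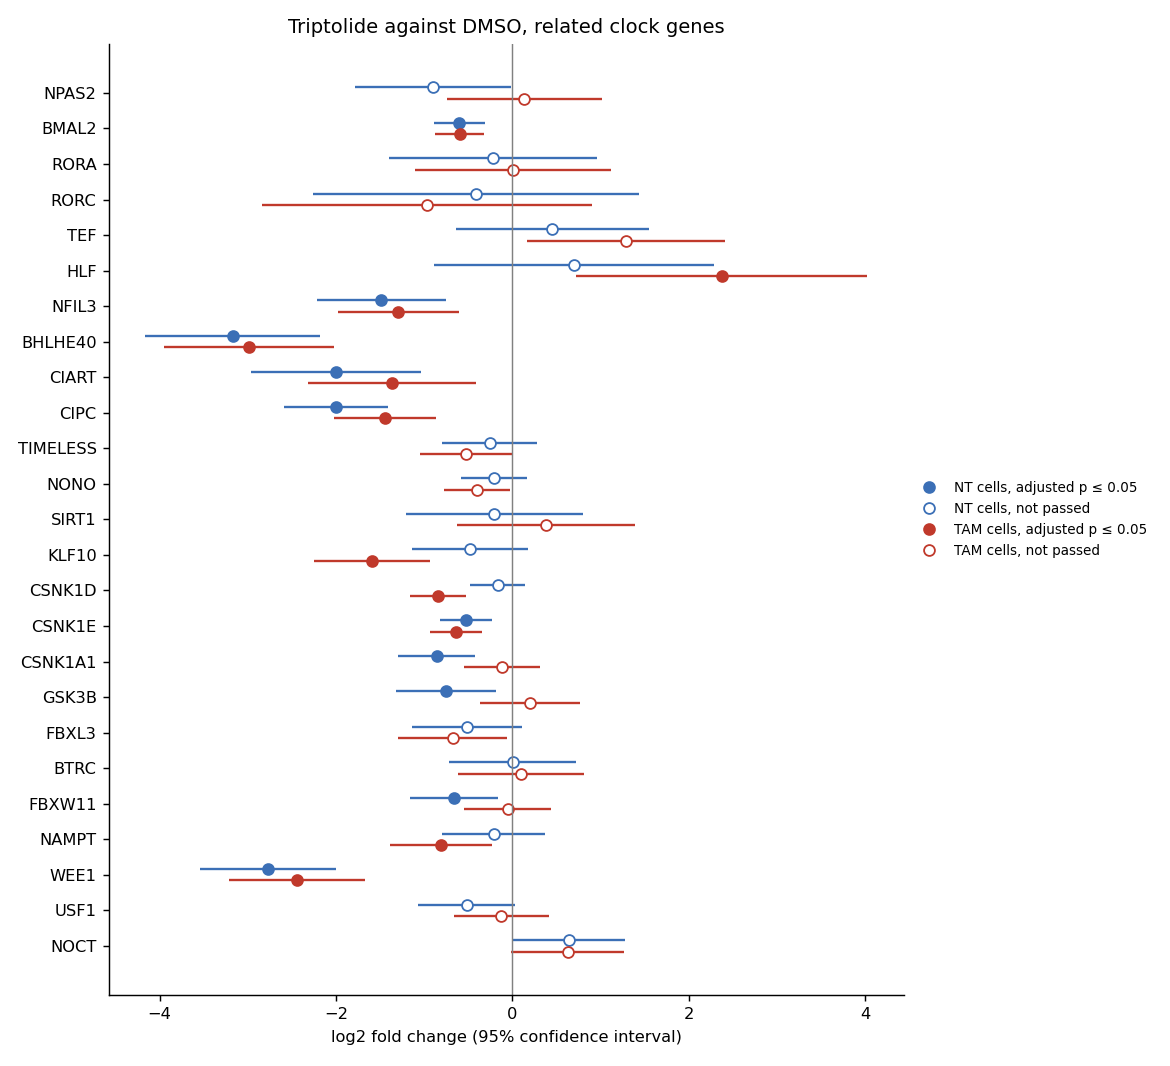
Log2 fold change of TPL against DMSO (horizontal axis) for the 25 tested genes of the further clock list in NT and TAM cells, with 95% confidence intervals from edgeR's fit of 4 groups of 2 libraries. Filled points passed an adjusted p of 0.05. BHLHE40 (-3.17 and -2.99) and WEE1 (-2.77 and -2.44) lie farthest to the left, and HLF in TAM cells (2.37) is the only filled point to the right of 0.

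Between the 2 states BMAL2, NFIL3 and NAMPT were higher in TAM than in NT cells, both with DMSO and with TPL. The other 22 of the 25 genes did not pass in either comparison. Of all genes 3.46% were higher and 3.39% lower with DMSO, and 2.83% and 4.21% with TPL. The share of all genes higher in both was not counted. BMAL2, a paralogue of BMAL1, was at 8.99 and 9.57 FPKM in NT and at 29.84 and 28.07 FPKM in TAM (log2 fold change 1.67, SE 0.12, edgeR adjusted p = 0.000609). It made up 53.1% and 52.5% of the summed BMAL1 and BMAL2 FPKM in NT, and 85.6% and 87.7% in TAM. NAMPT was higher by a log2 fold change of 1.93 (edgeR adjusted p = 0.00613) and NFIL3 by one of 1.32 (0.0433) with DMSO.

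Genes with the pattern most like CRY2 and NR1D1 over the 8 libraries were sought among 14135 genes with a mean of at least 1 FPKM, by Pearson's r of log2 CPM. The libraries fall into treated and untreated sets, so a high r mostly restates that split. For CRY2 they were CSRNP2 (r = 0.999), TEX14 (0.998) and NRARP (0.997). TEX14 was at 0.05 to 0.13 FPKM without TPL and reached the mean of 1 FPKM only through the TPL libraries (2.45 to 4.25 FPKM). For NR1D1 they were SRXN1 (0.990), AKAP12 (0.989) and CXCL3 (0.988). CSRNP2 was at 7.78 to 11.78 FPKM without TPL and at 45.31 to 64.90 FPKM with it.

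RNAPII occupancy was read from the listed ChIP-Seq peaks that lie over a TSS, on hg19 (GRCh37) coordinates. There is 1 list per group without heights, so no replicate error can be given. The descriptions of both replicates name the same list, while the 1 peak name read from each list carries a replicate 1 tag. Whether a list is pooled was not settled. The names read also show a threshold of 0.02 in the NT, NT + TPL and TAM + TPL lists and 0.1 in the TAM list. The presence of a peak in TAM thus cannot be told apart from that setting. The lists held 11222 (NT), 8653 (NT + TPL), 11056 (TAM) and 8464 (TAM + TPL) peaks. Of 15031 genes, 67.5%, 54.3%, 61.5% and 53.4% had a peak over a TSS in these lists, against 5, 3, 6 and 3 of the 10 clock genes.

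CRY2 had a peak over its canonical TSS in all 4 lists, as 46.4% of all genes had over a TSS. The peak was at chr11:45868906-45869186 in NT and at chr11:45868940-45869130 in TAM, and with TPL at chr11:45868872-45869176 and chr11:45868886-45869164. The widths in that order were 281, 191, 305 and 279 bases, and it overlapped the 3′ end of the CRY2 sequence printed above in each list. CLOCK also had a peak in all 4 lists, 1646 bases wide in NT, 1556 in NT + TPL and 1380 in TAM, and split into peaks of 750 and 396 bases in TAM + TPL. The CRY2 and CLOCK peaks were thus present with and without TPL, while the RNA of the first was higher and that of the second lower with it. Without heights the lists cannot show whether the amount of RNAPII at either gene changed. The study chose CRY2 among genes it found to have more RNAPII at the promoter with TPL.

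The other members differed between lists. NR1D2 had a peak at its TSS in NT (300 bases) and TAM (179 bases) and in neither TPL list. NR1D1 had one of 234 bases in TAM alone, and its nearest peak in NT lay 629 bases inside the gene. BMAL1 had a peak of 288 bases at its canonical TSS in NT and one of 129 bases in TAM that held other annotated BMAL1 starts, 41 bases downstream of the canonical one. The nearest BMAL1 peak lay 328 bases upstream in NT + TPL and 185306 bases downstream in TAM + TPL. PER2 had a peak in NT alone, of 887 bases, and in TAM a peak ended 58 bases upstream of the TSS. PER1 had a peak in NT + TPL (1499 bases), TAM (883 bases) and TAM + TPL (244 bases), and in NT the nearest lay 631 bases upstream. CRY1, PER3 and DBP had none over a TSS in any list.

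With TPL 2 of the 5 occupied clock genes in NT kept a listed peak (CRY2 and CLOCK), as did 3 of the 6 in TAM (CRY2, CLOCK and PER1). Among all genes 78% of those occupied in NT and 81.1% of those occupied in TAM kept one. PER1 was gained over a TSS in NT + TPL, as were 5% of the genes without a peak in NT. In NT it already had a peak within 1000 bases of a TSS, so under that wider rule it was not gained. No member was gained in TAM + TPL, where 9.04% of the genes without a peak in TAM were. Within 1000 bases of a TSS the members with a peak numbered 9 in each DMSO list, and 4 in NT + TPL and 3 in TAM + TPL. Of all 15031 genes 71.3% had such a peak in NT and 68.2% in TAM, and 58% and 57.4% with TPL. These counts are of single lists and carry no test.

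**Figure D5:**
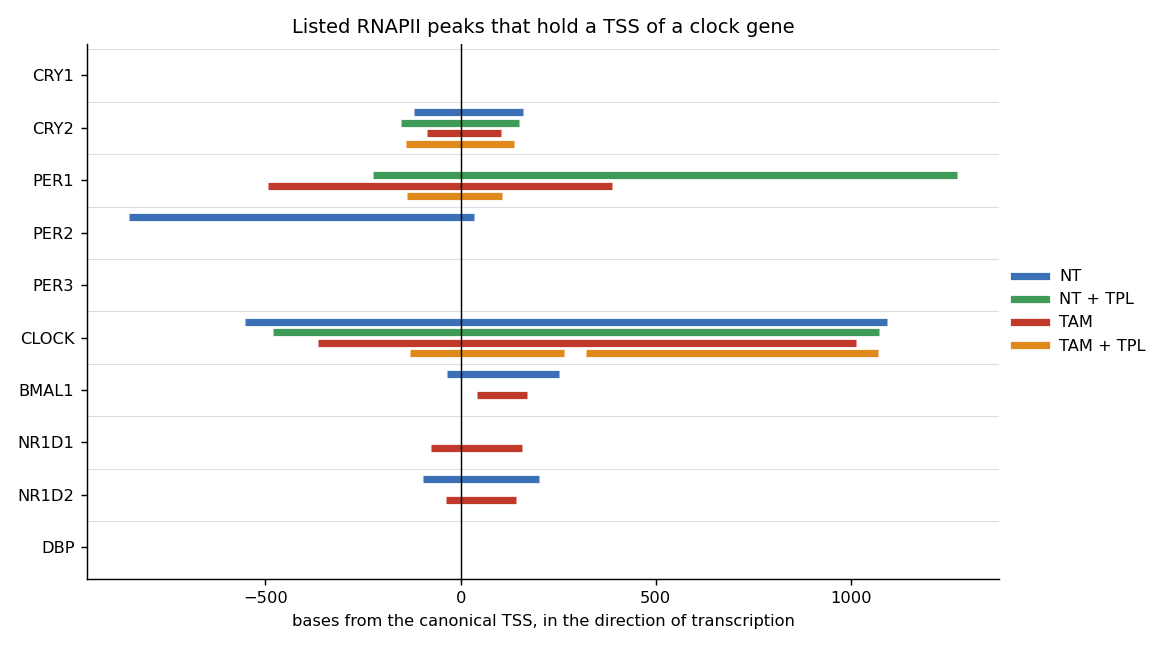
Extent of each listed RNAPII peak that holds an annotated TSS of a clock gene, as bases from the canonical TSS (vertical line at 0; negative is upstream), in the NT, NT + TPL, TAM and TAM + TPL lists. CRY2 and CLOCK have a peak in all 4 lists, and CRY1, PER3 and DBP have none.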

How the data were processed

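RNA-Seq of 8 libraries and RNAPII peak lists of 4 groups were used. The members and gene lists were chosen with earlier results of these data known. The expected counts and FPKM were made by the authors from poly-A RNA with Bowtie2 and RSEM, and genes without a read, which the files leave out, were taken as 0. The deposited peak lists give positions on hg19 with no score or signal. The authors called them over input with MACS and kept peaks at a TSS; between 85.49 and 90.98% of the peaks of a list held a TSS of GENCODE release 44 on GRCh37. That annotation also gave the gene positions and start regions.

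Symbols were found for 21077 of 23604 rows through the gene ID and for 2382 through the accession, and 145 rows stayed without one. After rounding, the counts went into edgeR 4.0.16 (R 4.3.3) with TMM scaling and its filter on low counts, and its quasi-likelihood test was run in 1 fit of 4 groups over 16948 genes with Benjamini-Hochberg adjusted p. A gene passed at an adjusted p of at most 0.05. The common dispersion was 0.099, from 2 libraries per group. The SE is the log2 fold change divided by the square root of F. PER2 counts were not whole, since RSEM shared its reads with other transcripts. Named were all members, the further list's genes that passed in any comparison, the cell markers, and the 3 genes most like CRY2, which rose most, and NR1D1, which fell most over both states. Alternatives were DESeq2 1.42.0, its size factors, upper quartile and GAPDH scaling, no filter and 10 counts in every library, limma 3.58.1 on log2(FPKM + 1) and log2(FPKM + 0.1), summed rows, a replicate block, the 2 groups alone, leaving out each library, and stricter limits. A stricter peak threshold could not be tried without scores. ChIP-Seq read signal was not analysed here.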

Additional observations from a re-analysis of the deposited data

Results flagged for a closer look

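The 10 members and the 25 further genes tested were searched for opposite TPL shifts in the 2 states. In 2 of them both TPL libraries lay beyond both controls, on opposite sides in NT and TAM cells. The share of all genes with this pattern was not counted, so it is given as a description. DBP was at 1.08 and 1.35 FPKM in NT and at 2.71 and 1.37 FPKM in NT + TPL, and at 1.51 and 1.58 FPKM in TAM and at 0.51 and 0.74 FPKM in TAM + TPL. In NT cells the nearest DBP values were 1.35 FPKM without TPL (20 expected counts) and 1.37 FPKM with it (19 expected counts). The difference between the TPL effects on DBP was -2.06 on the log2 scale (SE 0.71), and the interaction did not pass (edgeR adjusted p = 0.381). GSK3B, a kinase that acts on several clock proteins, was at 13.40 and 17.49 FPKM in NT and at 11.65 and 6.95 FPKM in NT + TPL, and at 10.36 and 9.73 FPKM in TAM and at 12.64 and 11.13 FPKM in TAM + TPL. Its difference was 0.94 (SE 0.34), and the interaction did not pass (edgeR adjusted p = 0.401).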

How the results depend on the processing

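The count of clock genes that passed with TPL in NT cells was 5 and fell to 2 in a fit of the 2 groups alone and to 1 under the stricter limits. Leaving out each library gave counts from 2 to 5. In TAM cells it was 3, with 1 under the stricter limits and 2 to 4 with a library left out. Between TAM and NT cells with DMSO it was 1, with 3 by DESeq2, 2 with upper quartile scaling, 3 with GAPDH as the reference, 2 with at least 10 counts in every library, 3 with rows summed by symbol, 0 in the fit of the 2 groups alone, 0 under the stricter limits and 0 to 3 with a library left out. With TPL in both it was 0, with 1 by DESeq2 and 0 to 1 with a library left out, and the interaction count was 0 to 0. The count of members with an RNAPII peak in the NT list went from 5 to 9 within 1000 bases. Where a library is left out, the lone sample of its group is assumed to vary like the others.

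Some signs turned. Leaving out each library in turn gave ranges that crossed 0 for 10 values. With TPL in NT cells these were -0.65 to 0.0205 for BMAL1 (positive without NT + TPL replicate 2), and in TAM cells -0.28 to 0.41 for PER1 (negative without TAM replicate 2) and -0.078 to 0.75 for PER3 (negative without TAM replicate 1, at -0.02, and without TAM + TPL replicate 1). Between TAM and NT cells with DMSO they were -0.38 to 0.12 for CLOCK and -0.41 to 0.10 for NR1D2, both positive without NT replicate 2. With TPL in both they were -0.45 to 0.11 for CRY1 (positive without TAM + TPL replicate 1), -0.12 to 0.56 for CLOCK (negative without NT + TPL replicate 2) and -0.63 to 0.039 for BMAL1 (positive without NT + TPL replicate 1). In the interaction they were -0.042 to 0.53 for CRY1 (negative without NT replicate 2 or TAM + TPL replicate 2) and -0.40 to 0.23 for PER2 (positive without NT + TPL replicate 2 or TAM replicate 1). With GAPDH as the reference PER1 with TPL in TAM cells went to -0.089, DBP between TAM and NT cells with DMSO to -0.12, CLOCK between them with TPL to -0.064 and the PER2 interaction to 0.10. None of these values had passed, and the cause was not tested. Of the other values of single genes, 925 kept their direction and side of the threshold, 34 lost the threshold and 19 gained it. The 34 could come only from the calls of the main fit. These were 1 up and 4 down with TPL in NT cells, 1 up and 2 down in TAM cells, and 1 down between TAM and NT cells with DMSO. Most of the 925 belong to genes and comparisons that had not passed, so this number does not measure how firm the calls are.

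With the replicate number as a block, the replicate numbers gave 4 calls with TPL in NT cells (PER3 was lost, adjusted p = 0.0525) and 2 in TAM cells (CLOCK was lost, adjusted p = 0.0662), and 1, 0 and 0 in the other comparisons. Same-numbered samples did not deviate together (r from -0.113 to 0.047), so the numbers were not taken as pairs. A crossed pairing in NT + TPL, chosen after seeing the data, gave 5 calls with TPL in NT cells.

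Scaling moved all genes together. With GAPDH as the reference the median log2 fold change over all genes was -0.26 with TPL in NT and -0.07 in TAM cells, and -0.50 between TAM and NT cells with DMSO. With upper quartile scaling it was 0.31 and 0.29 with TPL. In NT cells 2919 genes rose and 3355 fell, against 4088 and 2625 with upper quartile scaling and 1358 and 4381 with GAPDH. Low counts limit PER3 and DBP most.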
